A study of Mus musculus with 19 samples.

Results

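The genes described here are 9 mouse genes known for their transcription at the 2cell stage, other than the Zscan4 copies: *Zfp352*, *Tcstv1*, *Tcstv3*, *Usp17la*, *Usp17lc*, *Usp17le*, *Tdpoz3*, *Tdpoz4* and *Sp110*. They were chosen by name, and all 9 were found among the 25891 genes of the deposited table. RNA was sequenced from MII oocytes and 2cell embryos of BL6 females that were 6 to 10 weeks old and labelled heterozygous (CPEB3+/-) or knockout (CPEB3-/-) for CPEB3, a protein of the family that binds cytoplasmic polyadenylation elements in the 3′UTRs of mRNAs. The knockout is conditional: the methods describe females with both *Cpeb3* alleles floxed and Cre driven by the *Zp3* promoter, which is active in growing oocytes, so the genotype of an embryo library is that of its mother. Every female received 5 IU PMSG and, 48 h later, 5 IU hCG. Zygotes of mated females were cultured in M16 medium, and 2cell embryos were taken 37 h after hCG. The labels list 5 CPEB3+/- and 5 CPEB3-/- MII libraries (A to E in each), 5 CPEB3+/- 2cell libraries (A to E) and 4 CPEB3-/- 2cell libraries (A to D). The methods give 5 cells per library, and no source used here says whether libraries came from separate females, so p-values measure the spread between these libraries, which may be technical. In pooled cells, fewer cells with a transcript and less transcript per cell cannot be told apart.

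At the 2cell stage, the genome of the mouse embryo is fully active again. The genes transcribed then include families that are silent in most other cells, several of them present in many near-identical copies. A small share of embryonic stem cells can switch the same genes on again. The oocyte, by contrast, makes no RNA at MII and lives on stored maternal transcripts, whose stability and translation depend on their poly(A) tails. *Zfp352* encodes a C2H2 zinc finger protein. *Tcstv1* and *Tcstv3* belong to the 2-cell-stage variable group. *Usp17la*, *Usp17lc* and *Usp17le* encode deubiquitinases, enzymes that take ubiquitin off other proteins. *Tdpoz3* and *Tdpoz4* encode proteins with a TRAF domain and a POZ domain, related to the ubiquitin ligase adaptor SPOP. *Sp110* encodes a nuclear body protein of the Sp100 family that is induced by interferon.

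In GRCm38, *Zfp352* lies at chr4:90218820-90225702 (+ strand), *Tcstv1* at chr13:119893388-119894785 (-) and *Tcstv3* at chr13:120316878-120318178 (+). *Usp17la* lies at chr7:104857009-104862667 (+), *Usp17lc* at chr7:103415072-103419880 (+) and *Usp17le* at chr7:104768049-104777470 (-). *Tdpoz4* at chr3:93796398-93797510 (+) and *Tdpoz3* at chr3:93826020-93827117 (+) are neighbours, and *Sp110* lies at chr1:85576899-85598817 (-). All 9 are annotated as protein coding in GENCODE vM21. Coding sequences were 94.7% identical between *Tcstv1* and *Tcstv3*, 93.5% to 94.6% between the *Usp17l* genes and 79.2% between *Tdpoz3* and *Tdpoz4*. Fragments that fit several copies bear on these values. Of all 150-base windows in a gene's transcripts, 33.4% of those of *Tdpoz3* also occur letter for letter in the pseudogene *Gm4982*, 29.4% of those of *Usp17lc* occur in *Usp17ld*, and 12.9% of those of *Sp110* occur in transcripts of *Gm16026* or 1 other gene. The share was 6.54% for *Tdpoz4*, 1.28% for *Usp17la*, 0.806% for *Usp17le* and 0% for *Zfp352*, *Tcstv1* and *Tcstv3*. How the authors' counting treats such fragments is not given in the sources used here, so the levels of genes with shared windows are uncertain, most of all by this measure those of *Tdpoz3*, *Usp17lc* and *Sp110*. With windows of 75 bases, the shares were 54.5%, 35.7% and 39.2% for these genes, 19.9% for *Tdpoz4*, 16.1% for *Usp17le*, 14.3% for *Tcstv3*, 7.88% for *Tcstv1*, 7.67% for *Usp17la* and 2.86% for *Zfp352*.

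CPEB proteins bind U-rich cytoplasmic polyadenylation elements (CPE) in 3′UTRs, and the poly(A) signal (PAS) directs cleavage and tailing. The letters UUUUAU and UUUUAAU were searched as CPE, and AAUAAA and AUUAAA as PAS, on the transcript strand of the longest annotated 3′UTR. Of the 7 genes with a 3′UTR in the annotation (the models of *Tdpoz3* and *Tdpoz4* hold none), 2 hold a CPE, *Zfp352* and *Usp17lc*, while 56.6% of all 21028 annotated 3′UTRs hold at least 1. The 7 are short, at 102 to 897 bases against a median of 960.5 bases over all genes, and the shares were not adjusted for length. These CPEs start 349 and 403 bases before the 3′ end, and in none of the genes does a CPE lie within 100 bases of a PAS in the last 60 bases, an arrangement found in 13.7% of all 3′UTRs. A PAS in the last 60 bases was found in *Zfp352*, *Tcstv1*, *Usp17la*, *Usp17lc* and *Sp110*, and in 75.5% of all 3′UTRs. Such matches describe letters in the annotated 3′UTR and are not evidence of binding. They are printed 5′ to 3′ from GENCODE vM21 transcripts, with the motif in capitals, because they show how far the CPE lies from the tail in the 2 genes that have 1 and how alike the ends of the 2 *Usp17l* genes are.
*Zfp352* CPE, chr4:90225343-90225371 (+): caacaaauagcUUUUAAUgcuguuuauag
*Zfp352* PAS, chr4:90225658-90225685 (+): cuuucuuuugaAAUAAAaagacacaaua
*Usp17lc* CPE, chr7:103419467-103419495 (+): uuuccuuuuuuUUUUAAUuuauuuuuugu
*Usp17lc* PAS, chr7:103419852-103419879 (+): uucuuugaccaAAUAAAuucuguuacuu
*Usp17la* PAS, chr7:104862635-104862662 (+): uucuuuggucaAAUAAAuucuguuacuu

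The depth of each library, estimated from the steps between low values, was 17.2 to 23.6 M fragments (M, mega). The deposited values are FPKM, that is, fragments per kilobase of transcript and per mega-fragment of the library. The targeted gene did not follow the labels at this level: *Cpeb3* had 0.0755 ± 0.0240 FPKM (SD, n = 5) in CPEB3+/- and 0.162 ± 0.0325 (n = 5) in the libraries labelled CPEB3-/- at MII, and 0.0303 ± 0.0149 (n = 5) and 0.0554 ± 0.0129 (n = 4) in 2cell embryos. A value per gene does not separate the deleted part from the rest, so it does not check the genotype, and each direction below rests on the labels. All 8 oocyte markers of the fixed list were present at a mean of 0.1 FPKM or more in every group, with summed levels of 541 to 720 FPKM at MII and 118 to 212 FPKM at the 2cell stage. Cumulus and granulosa markers (6 of 10 listed genes in the table) summed to at most 0.602 FPKM and sperm markers (3 of 6) to at most 1.31 FPKM, with *Foxl2* and *Tnp1* at 0 in each MII library. Of 5 blood markers 2 are in the table, the haemoglobin genes *Hba-a1* and *Hba-a2*, which summed to at most 0.428 FPKM at MII and to 46.2 to 146 FPKM in 2cell libraries of both genotypes. Their part in the stage differences below was not tested. Across all genes, 1355 of 10515 tested differed between genotypes at MII and 2565 of 14051 at the 2cell stage, with 43.4% and 46.0% of the calls higher in CPEB3-/-. These shares depended on the scaling: when libraries were brought to an equal FPKM sum they were 69.9% and 80.9%, as the median log2 difference of all genes moved from 0.01 to 0.15 and from -0.01 to 0.26. With the values as deposited, they were 57.1% and 52.3%, and with all 19 libraries in 1 fit 45.4% and 53.8%.

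First, the level of each gene was compared between MII oocytes and 2cell embryos. All but *Sp110* were higher in 2cell embryos, with log2 fold changes in CPEB3+/- from 1.75 for *Tcstv1* to 7.91 for *Zfp352*. A gene was called when limma's moderated test on log2(FPKM + 0.1), adjusted over all genes tested, gave an adjusted p under 0.05 with a more than 1.5-fold change. In CPEB3+/- samples, 8 of the 9 genes were called higher in 2cell embryos, where 38.5% of all 12684 genes tested were, and none was called lower, where 30.9% were. In CPEB3-/- samples, the same 8 genes were called higher, against 37.5% of 13458 genes, and none lower, against 29.7%. The median log2 fold change of the 9 genes was 5.42 in CPEB3+/- and 5.10 in CPEB3-/-, and that of all genes tested was 0.12 in both. The 2 comparisons have no library in common, but each shares its libraries with the comparisons of genotypes below. Libraries were made from captured mRNA, so all levels here are of recovered transcripts. Whether poly(A) tail length bears on recovery, between stages or genotypes, was not tested. Of the 9 genes, 6 passed the filter on low values only through their 2cell libraries in CPEB3+/-: *Zfp352* and the *Usp17l* and *Tdpoz* genes. In CPEB3-/- these were 4, *Zfp352*, *Usp17la*, *Tdpoz3* and *Tdpoz4*. The test had to find them different, so the counts, and the p-values of these genes below, are a description.

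**Figure D1:**
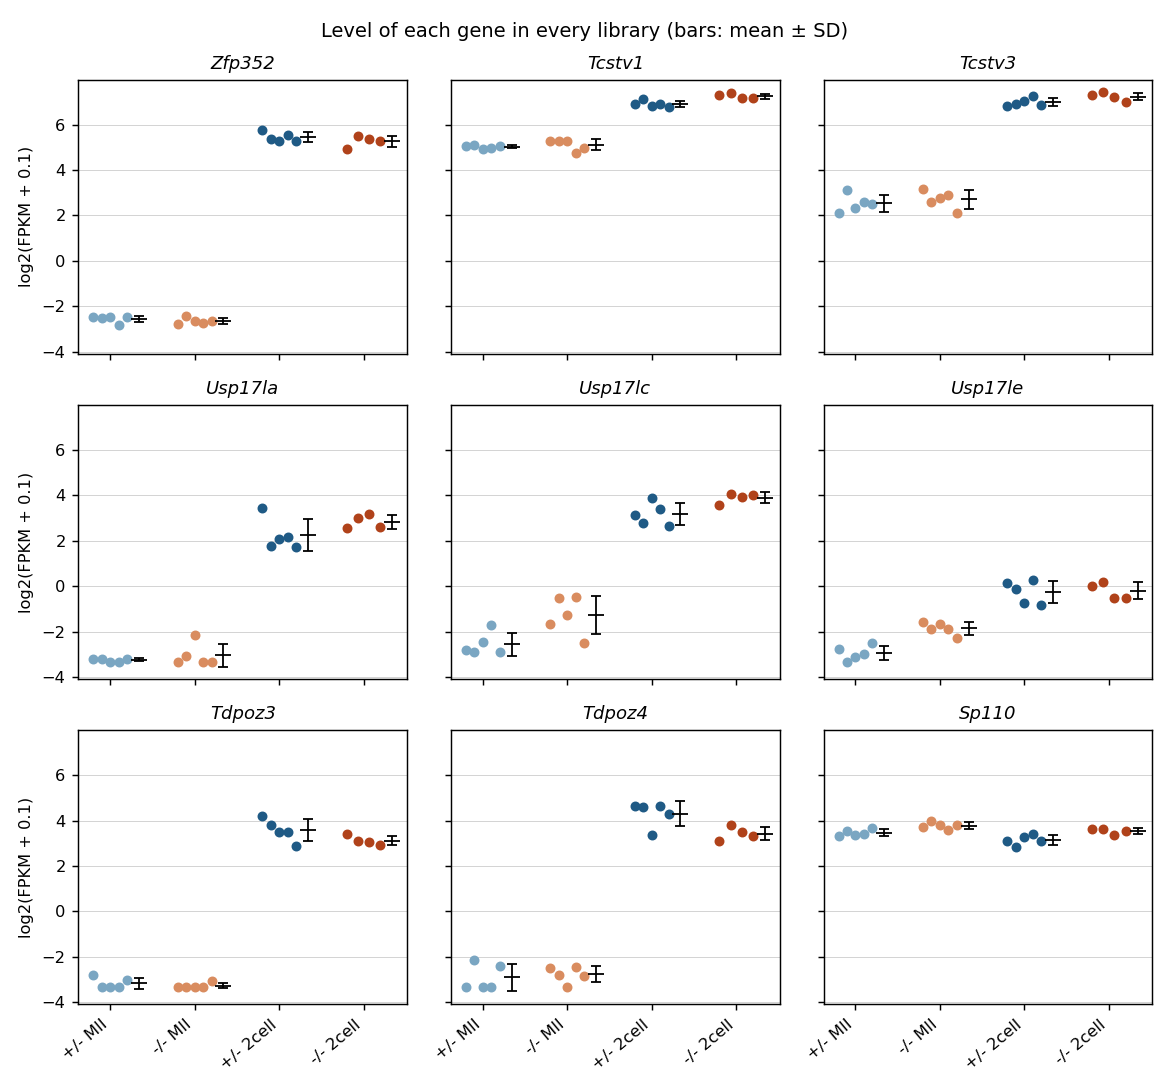
Level of each of the 9 genes in every library, as log2(FPKM + 0.1), for CPEB3+/- and CPEB3-/- MII oocytes (5 libraries each) and 2cell embryos (5 and 4 libraries). Points are libraries in letter order and black bars give mean ± SD; 8 genes sit higher in all 2cell than in all MII libraries, and the *Sp110* groups overlap.

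*Zfp352* showed the widest gap between the stages in these units. Its level was 0.0777, 0.0750, 0.0798, 0.0424 and 0.0802 FPKM in CPEB3+/- MII libraries A to E and 0.0467, 0.0881, 0.0615, 0.0508 and 0.0596 FPKM in CPEB3-/- MII libraries A to E, which corresponds to 1.98 to 4.29 fragments per library. In 2cell libraries, it was 54.7, 40.7, 38.6, 47.2 and 38.7 FPKM in CPEB3+/- A to E and 30.5, 45.0, 41.3 and 38.9 FPKM in CPEB3-/- A to D. The stages did not overlap, and MII oocytes of both genotypes held a few fragments at most. The log2 fold change was 7.91 (SE 0.137, adjusted p = 9.52e-12) in CPEB3+/- and 7.84 (SE 0.146, adjusted p = 3.27e-10) in CPEB3-/-. These fitted values understate the change of genes this low at MII because of the added 0.1 FPKM. The plain ratio of levels was 618-fold in CPEB3+/-, and the counting error of the 17.0 MII fragments alone allows 386- to 1061-fold.

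The *Tcstv* genes rose from transcripts that were already well above the filter in every MII library. *Tcstv1* had 33.3, 34.6, 30.7, 31.6 and 33.4 FPKM in CPEB3+/- MII libraries A to E and 38.9, 38.5, 39.3, 27.2 and 31.4 FPKM in CPEB3-/- ones. It then reached 119, 139.9, 114, 120.5 and 110.0 FPKM in CPEB3+/- 2cell libraries A to E and 157, 169, 144 and 142 FPKM in CPEB3-/- A to D. *Tcstv1* thus stood at a median rank of 1.48% from the top of the table in CPEB3+/- MII oocytes already, and its rise was the smallest of the 8 in CPEB3+/-, 1.75 (SE 0.0923, adjusted p = 1.29e-08) on the log2 scale, against 2.04 (SE 0.120, adjusted p = 1.62e-07) in CPEB3-/-. *Tcstv3* started lower, at 4.26 to 8.54 FPKM in CPEB3+/- and 4.16 to 8.97 FPKM in CPEB3-/- MII libraries, and reached 114 to 154 and 129 to 172 FPKM in 2cell libraries. Its log2 fold changes were 4.32 (SE 0.150, adjusted p = 5.10e-10) and 4.43 (SE 0.186, adjusted p = 1.54e-08). At MII, *Tcstv1* was 3.74 to 7.81 times as abundant as *Tcstv3* in each library, and at the 2cell stage the ratio was 0.783 to 1.17, so both copies stood at about the same level per length.

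The *Usp17l* genes rose from low MII levels, to different heights. *Usp17lc* went from 0.0793 ± 0.0717 (SD, n = 5) to 9.33 ± 3.35 FPKM (n = 5) in CPEB3+/- and from 0.365 ± 0.237 (n = 5) to 15.0 ± 2.30 FPKM (n = 4) in CPEB3-/-, log2 fold changes of 5.63 (SE 0.282, adjusted p = 8.58e-09) and 5.10 (SE 0.391, adjusted p = 1.06e-06). *Usp17la* was at 0 in 5 of the 10 MII libraries and reached 3.20 to 10.8 FPKM in CPEB3+/- and 5.75 to 8.97 FPKM in CPEB3-/- 2cell libraries. Its log2 fold changes were 5.42 (SE 0.288, adjusted p = 1.37e-08) and 5.82 (SE 0.265, adjusted p = 2.69e-08), and the ratio to the 1.44 fragments of all CPEB3+/- MII libraries together, 1002-fold, has a counting interval of 228 to 15223. In CPEB3-/-, where the MII libraries held 7.95 fragments together, the ratio was 255-fold (129 to 592), so the order of the genotypes differs between the ratio and the fitted change. Of these fragments, 7.01 came from CPEB3-/- library C, so the order of the ratios rests on that library. *Usp17le* was the lowest of the 9 genes in 2cell embryos, at 0.778 ± 0.291 FPKM (n = 5) in CPEB3+/- and 0.787 ± 0.230 FPKM (n = 4) in CPEB3-/-. Its rise was 2.62 (SE 0.252, adjusted p = 1.95e-06) on the log2 scale in CPEB3+/- and 1.57 (SE 0.207, adjusted p = 5.78e-05) in CPEB3-/-, where its MII level was higher.

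The *Tdpoz* genes held fewer than 3 fragments per library at MII. *Tdpoz4* was at 0 in 4 of the 10 MII libraries, with a highest value of 0.129 FPKM (CPEB3+/- B). It reached 25.1, 24.3, 10.1, 25.2 and 19.2 FPKM in CPEB3+/- 2cell libraries A to E and 8.56, 14.0, 11.1 and 9.90 FPKM in CPEB3-/- A to D. The log2 fold change was 7.15 (SE 0.326, adjusted p = 3.96e-09) in CPEB3+/- and 6.13 (SE 0.219, adjusted p = 5.87e-09) in CPEB3-/-. *Tdpoz3* was at 0 in 7 of the 10 MII libraries and reached 7.39 to 18.5 FPKM in CPEB3+/- and 7.46 to 10.4 FPKM in CPEB3-/- 2cell libraries, log2 fold changes of 6.67 (SE 0.230, adjusted p = 5.10e-10) and 6.33 (SE 0.140, adjusted p = 6.47e-10). All 5 CPEB3-/- MII libraries together held 0.498 fragments of *Tdpoz3*, and the counting interval of the ratio in CPEB3-/- began at 217-fold.

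*Sp110* did not follow the other 8 genes. Its level was 9.92, 11.7, 10.2, 10.4 and 12.6 FPKM in CPEB3+/- MII libraries A to E and 13.0, 15.9, 13.8, 12.1 and 13.9 FPKM in CPEB3-/- ones. In 2cell libraries, it was 8.59, 7.05, 9.60, 10.4 and 8.37 FPKM in CPEB3+/- A to E and 12.2, 12.3, 10.2 and 11.5 FPKM in CPEB3-/- A to D. The stages overlapped in both genotypes, and the 2cell means were lower: the log2 fold change was -0.45 (SE 0.114, adjusted p = 0.00379) in CPEB3+/- and -0.35 (SE 0.116, adjusted p = 0.0200) in CPEB3-/-, both smaller than 1.5-fold and so not called. When libraries were brought to an equal FPKM sum, *Sp110* was called lower in 2cell embryos of both genotypes (-1.10 and -0.82), as it was after a correction for GC content (-0.93 and -0.77). For *Sp110*, these values thus go against the description as a 2-cell-specific gene, within the limit set by its shared windows. The pseudogene *Gm16026*, which holds such windows, had 0.200 ± 0.0299 FPKM at MII and 5.45 ± 1.31 FPKM in 2cell embryos in CPEB3+/-. In CPEB3-/- it had 0.277 ± 0.0625 and 7.35 ± 0.0897 FPKM. Whether fragments of *Sp110* were counted there was not tested.

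**Figure D2:**
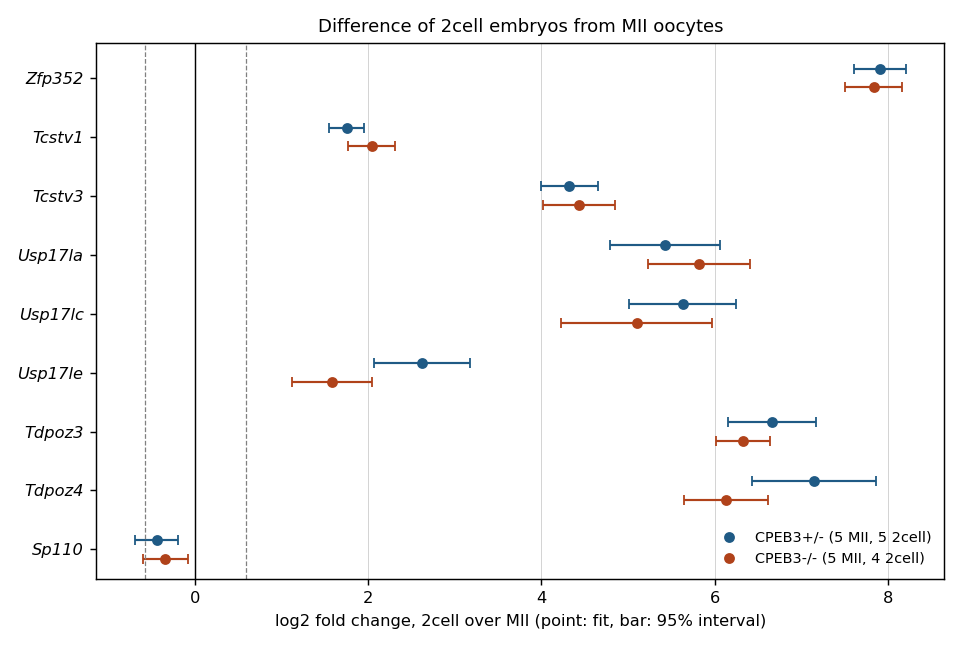
Fitted log2 fold change of 2cell embryos over MII oocytes for each gene, in CPEB3+/- and CPEB3-/- samples, with 95% confidence intervals; dashed lines mark 1.5-fold. The values run from 7.91 for *Zfp352* to -0.45 for *Sp110* in CPEB3+/-, and the 2 genotypes lie apart by more than 1 log2 unit for *Usp17le* and *Tdpoz4*.

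FPKM is scaled to length, so levels of different genes can be ordered, but only roughly. *Sp110* has 9 annotated transcripts with 6781 exon bases in all, and the models of *Tdpoz3* and *Tdpoz4* hold no 3′UTR. Windows shared with other genes add to the uncertainty, most of all for *Tdpoz3*, *Usp17lc* and *Sp110*. In CPEB3+/- 2cell embryos, *Tcstv3* (127 FPKM) and *Tcstv1* (121 FPKM) stood above *Zfp352* (44.0 FPKM), followed by *Tdpoz4* (20.8), *Tdpoz3* (12.4), *Usp17lc* (9.33), *Sp110* (8.81), *Usp17la* (5.17) and *Usp17le* (0.778 FPKM). The ranges of *Tcstv3* and *Tcstv1* overlapped, as did those of each pair of neighbours from *Tdpoz4* down to *Usp17la*, so that *Zfp352* was apart from both neighbours and *Usp17le* apart from the gene above it. In CPEB3-/- 2cell embryos, *Usp17lc* (15.0 FPKM) came before *Sp110* (11.5), *Tdpoz4* (10.9) and *Tdpoz3* (8.68 FPKM), again with overlapping ranges from each to the next. At MII, *Tcstv1*, *Sp110* and *Tcstv3* stood in this order and apart from each other in both genotypes, and the other 6 genes had means of at most 0.365 FPKM. The 9 genes together made up 0.0533% to 0.0637% of the summed FPKM of CPEB3+/- MII libraries, 0.0606% to 0.0752% of CPEB3-/- MII libraries, 0.195% to 0.261% of CPEB3+/- and 0.295% to 0.392% of CPEB3-/- 2cell libraries. Between the 2cell groups the sum itself differed, 135309 to 159320 in CPEB3+/- and 113886 to 123318 in CPEB3-/-.

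Next, the genotypes were compared within each stage, which is the question of the study: what the loss of maternal CPEB3 does to the RNA of the oocyte and of the embryo it gives rise to. At MII, 5 of the 9 genes passed the filter, 1 was called higher in CPEB3-/- (*Usp17le*), where 5.59% of all genes tested were, and none lower, where 7.29% were. In 2cell embryos, all 9 passed and none was called, where 8.41% of the genes tested were higher and 9.85% lower. At an unadjusted p under 0.05, 4 of the 9 genes would count in 2cell embryos (*Tdpoz4*, *Usp17lc*, *Sp110* and *Tcstv1*), as would 34.3% of all genes tested there. The median log2 difference of the genes tested was 0.22 at MII and 0.20 at the 2cell stage, against 0.01 and -0.01 for all genes. The genotypes did not overlap for 1 gene at each stage, *Usp17le* at MII and *Tcstv1* at the 2cell stage, while 16.3% of all genes tested at MII and 20% at the 2cell stage did not overlap.

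*Usp17le* had 0.0467, 0, 0.0134, 0.0258 and 0.0774 FPKM in CPEB3+/- MII libraries A to E and 0.236, 0.170, 0.216, 0.169 and 0.107 FPKM in CPEB3-/- ones. In fragments, this is 0 to 3.01 against 4.62 to 10.7 per library, so every CPEB3-/- library lay above every CPEB3+/- library, at a low level. The log2 fold change was 1.04 (95% interval 0.64 to 1.44, adjusted p = 0.00393). The gene passed the filter only through its CPEB3-/- libraries; with no filter the change was 1.03 (adjusted p = 0.00970). With a pseudocount of 1 FPKM it fell to 0.18, under the fold threshold. In 2cell embryos, *Usp17le* had 1.002, 0.822, 0.505, 1.11 and 0.456 FPKM in CPEB3+/- libraries A to E and 0.909, 1.05, 0.596 and 0.592 FPKM in CPEB3-/- A to D, with a log2 difference of -0.01 (95% interval -0.67 to 0.66).

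*Usp17lc* showed the same order at MII with more spread. It had 0.0407, 0.0336, 0.0842, 0.202 and 0.0360 FPKM in CPEB3+/- libraries A to E and 0.218, 0.602, 0.312, 0.614 and 0.0779 FPKM in CPEB3-/- A to E. Of the 5 CPEB3-/- libraries, 4 lay above every CPEB3+/- library, and library E lay among them. At least 0.1 FPKM was reached in 1 of 5 CPEB3+/- and 4 of 5 CPEB3-/- libraries, so the gene was tested mainly through the group where it was higher. The log2 difference was 1.21 (SE 0.393) with an adjusted p of 0.0506, just outside the threshold. With 1 library left out it ranged from 0.0164 (without CPEB3-/- library E) to 0.111, and the gene was called in 2 of 10 such fits, the other being that without CPEB3+/- library D (0.0432). Over 7 other settings, the adjusted p ran from 0.0202 with all 19 libraries in 1 fit to 0.112 with no filter, 4 of the 7 gave a call, and a pseudocount of 1 FPKM brought the difference down to 0.31. In 2cell embryos, it had 8.67, 6.86, 14.6, 10.4 and 6.18 FPKM in CPEB3+/- libraries and 11.7, 16.8, 15.1 and 16.3 FPKM in CPEB3-/- libraries, a log2 difference of 0.67 (SE 0.240, adjusted p = 0.0753). CPEB3+/- library C was the only one of its group that reached the CPEB3-/- range, and without it the gene was called higher (0.84, adjusted p = 0.0207), while leaving out any other library gave no call (adjusted p up to 0.171). Over 8 other settings, the adjusted p ran from 0.0284 with equal FPKM sums, where the difference was 1.02, to 0.186 with the replicate letter as a block, and 2 of the 8 gave a call.

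*Usp17la* was almost absent at MII, and the exact permutation test over 252 ways to assign the libraries gave a two-sided p of 0.722 (n = 5 and 5). In 2cell embryos, it had 10.8, 3.32, 4.14, 4.41 and 3.20 FPKM in CPEB3+/- libraries A to E and 5.75, 7.85, 8.97 and 6.07 FPKM in CPEB3-/- libraries A to D. All 4 CPEB3-/- libraries lay above 4 of the 5 CPEB3+/- libraries and below library A. The log2 difference was 0.54 (SE 0.356, adjusted p = 0.315), and without CPEB3+/- library A it was 0.87 (adjusted p = 0.0154), which passes both thresholds. None of the other fits with 1 library left out, nor any of 8 other settings, gave a call.

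*Tdpoz4* was the gene with the lowest CPEB3-/- level relative to CPEB3+/- in 2cell embryos. Of its CPEB3-/- libraries, all but B (14.0 FPKM) had 11.1 FPKM or less, and 4 of the 5 CPEB3+/- libraries had 19.2 FPKM or more, while CPEB3+/- library C had 10.1 FPKM. The log2 difference was -0.93 (SE 0.299) with an adjusted p of 0.0534, just outside the threshold. Without CPEB3+/- library C it was -1.18 (adjusted p = 0.00487) and the gene was called lower, while leaving out any other library gave no call (adjusted p up to 0.137). Over 8 other settings, the adjusted p ran from 0.0423 with all 19 libraries in 1 fit, which alone gave a call, to 0.139 with equal FPKM sums, where the difference shrank to -0.58. *Tdpoz3* had 18.5, 14.0, 11.1, 11.1 and 7.39 FPKM in CPEB3+/- and 10.4, 8.60, 8.19 and 7.46 FPKM in CPEB3-/- 2cell libraries, a log2 difference of -0.52 (SE 0.254, adjusted p = 0.183). At MII, both genes were under the filter, and the exact permutation tests gave two-sided p values of 0.667 for *Tdpoz4* and 0.444 for *Tdpoz3* (n = 5 and 5).

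*Zfp352* and the *Tcstv* genes differed less. For *Zfp352*, the 2cell log2 difference was -0.23 (95% interval -0.62 to 0.16, adjusted p = 0.380), and the exact permutation test at MII gave a two-sided p of 0.357 (n = 5 and 5). *Tcstv1* was higher in each of the 4 CPEB3-/- 2cell libraries (142 to 169 FPKM) than in any CPEB3+/- one (110.0 to 139.9 FPKM), but by less than 1.5-fold: the log2 difference was 0.29 (95% interval 0.02 to 0.55, adjusted p = 0.117). Scaled to the sum of FPKM, it was 0.64 (adjusted p = 0.00557) and called, the single setting of 8 in which it was. *Tcstv3* differed by 0.20 (95% interval -0.08 to 0.48, adjusted p = 0.285). At MII, the differences were -0.01 (95% interval -0.23 to 0.20) for *Tcstv1* and 0.08 (95% interval -0.35 to 0.51) for *Tcstv3*.

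*Sp110* was slightly higher in CPEB3-/- at both stages. Of the CPEB3-/- libraries, 4 of 5 at MII and 3 of 4 at the 2cell stage lay above every CPEB3+/- library of that stage. The log2 difference was 0.22 (95% interval 0.02 to 0.42, adjusted p = 0.0997) at MII and 0.34 (95% interval 0.05 to 0.63, adjusted p = 0.0951) at the 2cell stage, and neither passed the test. Under the sum scaling, the 2cell difference was 0.69 (adjusted p = 0.0168) and called, the single setting of 8 in which it was.

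**Figure D3:**
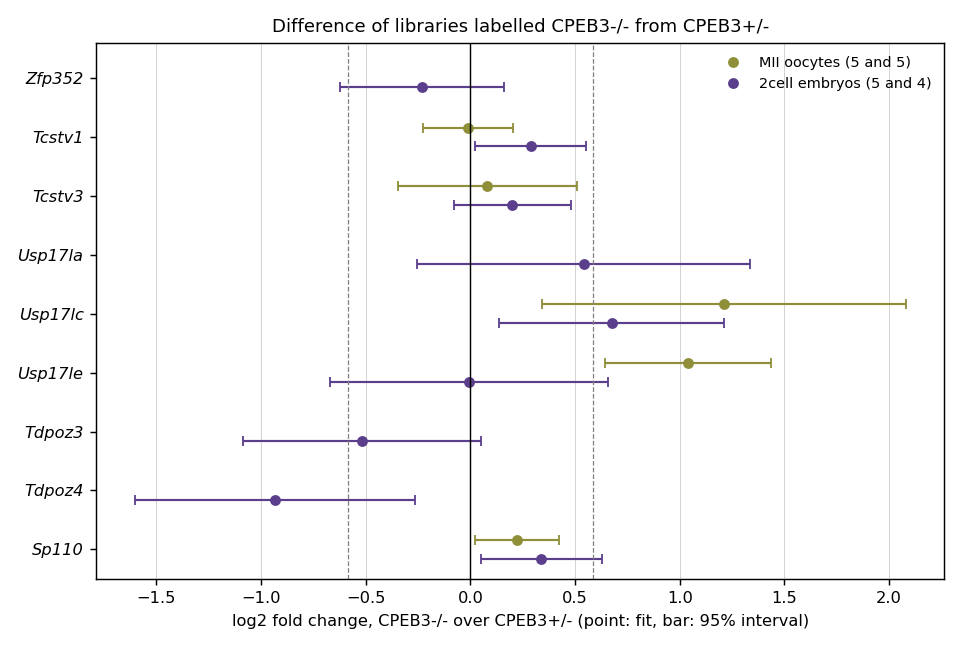
Fitted log2 fold change of CPEB3-/- over CPEB3+/- for each gene in MII oocytes (5 genes tested) and 2cell embryos (9 genes), with 95% confidence intervals; dashed lines mark 1.5-fold. *Usp17le* at MII (1.04) was called, and the intervals of *Usp17lc* and *Sp110* at MII and of *Tdpoz4*, *Usp17lc*, *Sp110* and *Tcstv1* at the 2cell stage leave out 0 without passing the adjusted threshold.

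The libraries of 2cell embryos did not rank alike across the genes. CPEB3-/- library B held the highest value of its group for 7 of the 9 genes, and CPEB3+/- library E the lowest for 5, whereas CPEB3+/- library A was highest for *Zfp352*, *Usp17la* and *Tdpoz3* and library C was highest for *Usp17lc* and lowest for *Tdpoz4* and *Zfp352*. After subtraction of each genotype's mean, log2 levels over the 9 libraries had a Pearson r of 0.77 between *Zfp352* and *Usp17la*, 0.73 between *Zfp352* and *Tdpoz4*, 0.29 between *Tdpoz3* and *Tdpoz4*, 0.36 between *Tcstv1* and *Tcstv3* and -0.36 between *Usp17lc* and *Tdpoz4*. These values describe 9 libraries, in each of which the genes share 1 depth and 1 scale factor.

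**Figure D4:**
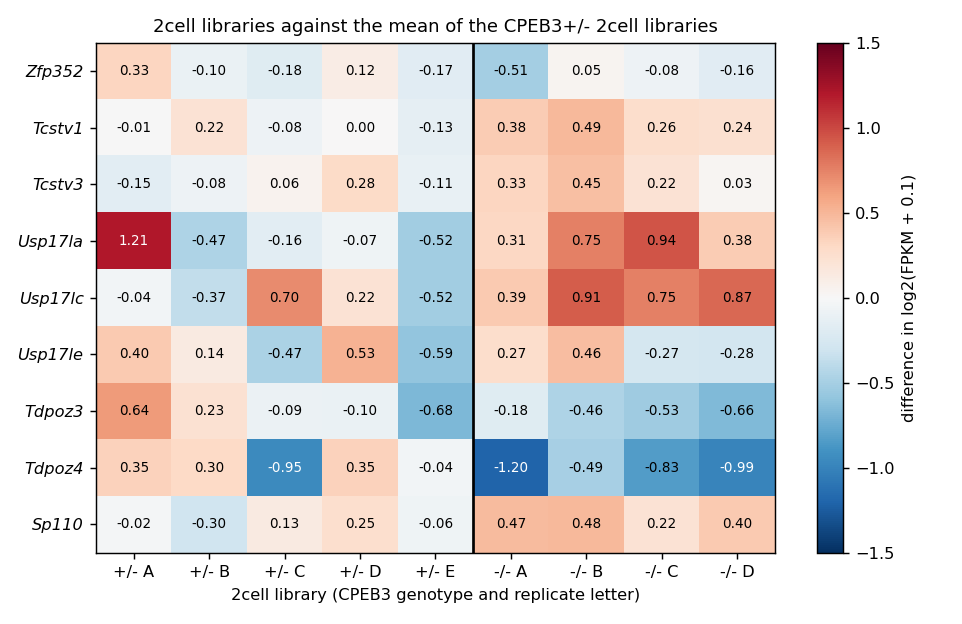
Difference in log2(FPKM + 0.1) of each 2cell library from the mean of the 5 CPEB3+/- 2cell libraries, for the 9 genes, with CPEB3+/- libraries left of the black line and CPEB3-/- libraries right of it. *Tdpoz4* is at -0.49 or lower in all 4 CPEB3-/- libraries and at -0.95 in CPEB3+/- library C, and *Usp17la* is at 1.21 in CPEB3+/- library A.

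The difference between the stage changes of the 2 genotypes was then tested as an interaction in 1 fit of all 19 libraries. None of the 9 genes was called, where 7.64% of 15786 genes tested were, and at an unadjusted p under 0.05 there were 3 (*Usp17le*, *Tdpoz4* and *Tcstv1*), beside 23.1% of all genes tested. The rise of *Usp17le* was smaller in CPEB3-/- by 1.05 on the log2 scale (95% interval of the difference -1.77 to -0.34, adjusted p = 0.0652), that of *Tdpoz4* by 1.05 (-1.95 to -0.14, adjusted p = 0.149), and that of *Tcstv1* was larger by 0.35 (0.05 to 0.65, adjusted p = 0.153). Without CPEB3+/- 2cell library C, both *Usp17le* (adjusted p = 0.0371) and *Tdpoz4* (adjusted p = 0.0377) were called. *Usp17le* was also called without CPEB3+/- 2cell library E (adjusted p = 0.0380) or CPEB3-/- 2cell library B (adjusted p = 0.0492). Of 19 fits with 1 library left out, 16 gave no call for *Usp17le* (adjusted p up to 0.125) and 18 none for *Tdpoz4* (adjusted p up to 0.236).

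Relatives of the 9 genes were followed as a list of 11, of which 7 are in the table. In 2cell embryos, 6 of the 7 (*Usp17lb*, *Usp17ld*, *Tdpoz1*, *Tdpoz2*, *Tdpoz5* and *Sp140*) were tested and all 6 were called higher than at MII in both genotypes, by log2 fold changes of 2.74 for *Sp140* to 7.69 for *Usp17lb* in CPEB3+/-. All 6 passed the filter only through their 2cell libraries in CPEB3+/-, and 5 of the 6 in CPEB3-/-, so this count, beside 38.5% and 37.5% of all genes, is a description. *Sp100* stayed under 0.04 FPKM on average in every group. *Sp140*, a nuclear body gene of the same family as *Sp110*, rose from 0.0124 ± 0.00382 to 0.690 ± 0.0812 FPKM (n = 5 and 5) in CPEB3+/-. The largest copies of the 2 families were outside the 9: *Usp17lb* had 52.5 ± 6.36 FPKM (n = 5) and 51.8 ± 4.88 FPKM (n = 4), and *Tdpoz5* had 50.7 ± 9.40 and 36.8 ± 8.51 FPKM, in CPEB3+/- and CPEB3-/- 2cell embryos. Between genotypes, none of the relatives was called, among 2 tested at MII and 6 in 2cell embryos, where 5.59% of all genes were higher and 7.29% lower at MII and 8.41% and 9.85% at the 2cell stage. The log2 difference in 2cell embryos was -0.88 for *Tdpoz2* (adjusted p = 0.0864), -0.53 for *Tdpoz5* (adjusted p = 0.112) and -0.03 for *Tdpoz1* (adjusted p = 0.917). It was -0.07 for *Usp17lb* (adjusted p = 0.746), -0.0036 for *Usp17ld* (adjusted p = 0.996) and 0.13 for *Sp140* (adjusted p = 0.563). At MII it was 0.80 for *Usp17lb* (adjusted p = 0.126) and -0.37 for *Tdpoz5* (adjusted p = 0.395).

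**Figure D5:**
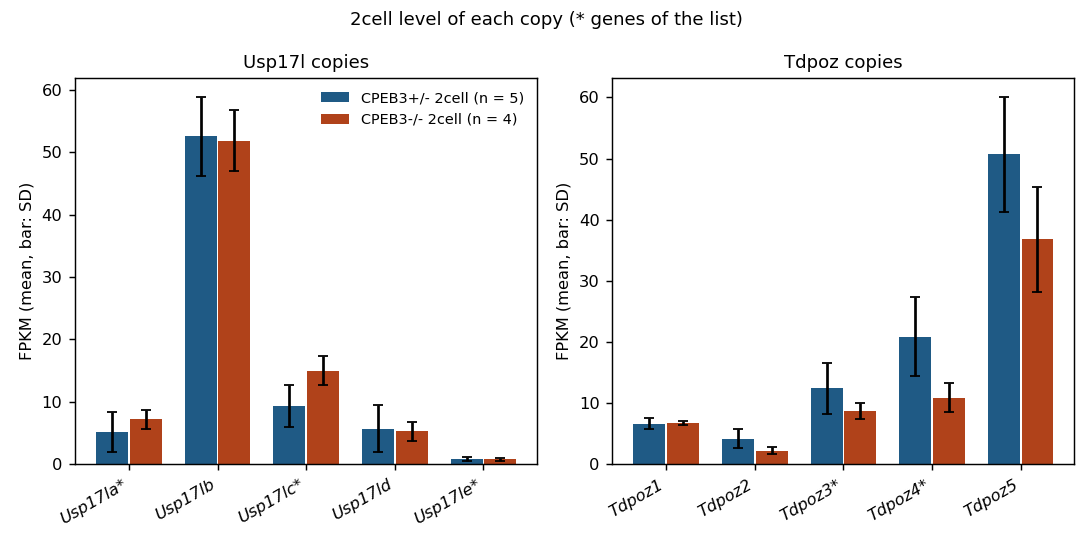
FPKM of each *Usp17l* and *Tdpoz* copy in the table in CPEB3+/- (n = 5) and CPEB3-/- (n = 4) 2cell embryos, as means with SD; asterisks mark the 5 copies among the 9 genes. *Usp17lb* and *Tdpoz5*, at 52.5 and 50.7 FPKM in CPEB3+/-, exceed the other copies of their families.

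Other genes of the 2cell programme were counted in a list of 40, 38 of them in the table. In CPEB3+/-, 29 of 37 tested were called higher in 2cell embryos and 7 lower, the largest rises being those of *Rfpl4b* (9.19) and *Gm4027* (9.05) and the largest falls those of *Gm4981* (-3.49) and *C87499* (-2.63). In CPEB3-/-, 30 of 38 were higher and 4 lower. Of these genes, 21 in CPEB3+/- and 18 in CPEB3-/- passed the filter only through their 2cell libraries, so that they had to differ. Among the rest, 8 of 16 were higher and 7 lower in CPEB3+/-, and 12 of 20 were higher and 4 lower in CPEB3-/-. Of all genes tested, 38.5% were higher and 30.9% lower in CPEB3+/-, and 37.5% and 29.7% in CPEB3-/-. Between genotypes in 2cell embryos, 7 of 38 were called higher, led by *Gm4340* (2.09, adjusted p = 0.0265) and *Tmem92* (1.23, adjusted p = 0.00190), and 6 lower, led by *Trim43a* (-1.07, adjusted p = 0.00371) and *Trim43c* (-1.06, adjusted p = 0.00952), with a median of -0.42, where 8.41% and 9.85% of all genes were called. At MII, 3 of 22 were higher, all of them Zscan4 copies, and 5 lower, against 5.59% and 7.29% of all genes. None of these 5 (*AA792892*, *E330014E10Rik*, *C87414*, *Gm4981* and *D5Ertd577e*, named after their values were seen) was called higher in 2cell embryos than at MII in either genotype, so their values go against the name of the list. The summed Zscan4 level was 2.05 ± 0.351 FPKM (n = 5) in CPEB3+/- and 14.4 ± 4.62 FPKM (n = 5) in CPEB3-/- MII oocytes, and 345 ± 182 FPKM (n = 5) and 199.7 ± 52.1 FPKM (n = 4) in 2cell embryos.

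Regulators of the 2cell programme formed the last list, with 5 activators and 11 repressors, all in the table. None of the 12 tested at MII was called between genotypes, where 5.59% of all genes were higher and 7.29% lower. In 2cell embryos, 3 of 16 were called lower in CPEB3-/- and none higher, where 9.85% and 8.41% of all genes were: the activators *Dppa4* (8.58 ± 2.30 against 4.69 ± 1.10 FPKM, log2 -0.90, adjusted p = 0.0180) and *Nr5a2* (0.211 ± 0.0422 against 0.1001 ± 0.0316 FPKM, log2 -0.68, adjusted p = 0.0319) and the repressor *Zmym2* (log2 -0.65, adjusted p = 0.0289). *Nr5a2* lay near the filter, which 5 of 5 CPEB3+/- and 3 of 4 CPEB3-/- libraries reached, so it passed through the CPEB3+/- libraries in which it was higher. *Duxf3*, the Dux gene that switches on this programme, had 0.263 ± 0.203 and 0.595 ± 0.388 FPKM in CPEB3+/- and CPEB3-/- 2cell embryos, with an adjusted p of 0.215. At MII it had 0.00354 ± 0.00792 and 0.145 ± 0.107 FPKM (n = 5 and 5), under the filter, and was not tested. From MII to 2cell embryos, 5 of 10 repressors tested were called lower in each genotype, where 30.9% and 29.7% of all genes were, led by *Chaf1a*, a subunit of a chromatin assembly factor, with log2 fold changes of -3.04 in CPEB3+/- and -2.75 in CPEB3-/-. Its partner *Chaf1b*, which passed the filter through its 2cell libraries, was called higher in both, by 2.43 and 2.86.

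Finally, the genes most like the 9 were found by the correlation of each gene with the mean standardised log2 profile. Over the 19 libraries, the 5 highest of 15777 other genes were *Pramef25* (r = 0.99), *B020031M17Rik* (0.99), *Gm5117* (0.99), *Gm16026* (0.99) and *Slc35e3* (0.99), and 1327 genes had an r of at least 0.95, since the stage sets this profile. The 8 genes that rose had an r of 0.94 to 0.99 with it, and *Sp110* had -0.70. *Gm16026*, a pseudogene at 0.157 to 0.378 FPKM in MII and 3.96 to 7.43 FPKM in 2cell libraries, holds the transcript windows that are shared with *Sp110*. Over the 9 2cell libraries alone, the highest were *Shld2* (0.97), *Gm11756* (0.95), *Zfp809* (0.93), *Gm8624* (0.92) and *Nat8f3* (0.92). Of these, *Shld2* (0.0728 to 0.118 FPKM) and *Nat8f3* (0 to 0.0794 FPKM) lay around or under the filter in 2cell libraries. The r of the 9 genes themselves ranged from 0.17 for *Tdpoz4* to 0.86 for *Usp17le*.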

How the data were processed

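The authors made libraries with a SMART-seq v4 kit, sequenced paired ends of 150 bases, trimmed reads with Trim Galore 0.4.1, mapped them to GRCm38 with HISAT2 2.0.5 (versions per the labels) and computed values in SeqMonk. The methods give quadruplicates and a HiSeq X, the labels 19 libraries and a NovaSeq. The deposited table holds FPKM: 0.00203% of its values are whole numbers above 0, and 44.9% of low values of 9238 genes with 1 transcript lay within 0.05 of a whole fragment, where 10% would by chance. Values below 1e-06 (1.07%) were read as 0. There were 0 columns left unused.

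Depth and fragments were derived from these steps and exon lengths (GENCODE vM21). Intervals (95%) of ratios cover counting error only, as PCR copies are not independent.

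A gene was tested if the number of libraries with at least 0.1 FPKM reached the size of the smaller group. Scaling used the trimmed mean of log ratios (30% of ratios and 5% of levels trimmed), and log2(FPKM + 0.1) was fitted in limma 3.58.1 (R 4.3.3) with a variance trend. Each comparison used its own 2 groups, and the interaction all 19 libraries. The Benjamini-Hochberg adjustment ran over all genes tested. For members under the filter at MII, an exact permutation test (two-sided) took the place of limma. Python 3.11.15, pandas 2.3.3 and scipy 1.17.1 were used.

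The 9 genes and the lists were chosen with earlier results of these data known. Named from each list were the 2 largest and 2 smallest changes among called genes, apart from family members, regulators and Zscan4 sums given for context. On simulated data with log2 changes of 1 and 2, the fit recovered 73% and 98% at MII (10164 genes) and 50% and 89% at the 2cell stage (13413 genes). Changes were planted only in genes at about 1 FPKM or more in CPEB3+/-. Most of the 9 genes lay under this level at MII, so the shares do not apply to them there. Alternatives were the values as deposited, scaling to the sum of FPKM, no filter, a filter of 1 FPKM, a pseudocount of 1, all 19 libraries in 1 fit, the replicate letter as a block and each library left out. A correction for GC content (loess, span 0.5) was added after seeing the data.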

Additional observations from a re-analysis of the deposited data

Results flagged for a closer look

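Of the 36 groups of 4 or 5 libraries examined (9 genes in 4 groups), 4 held 1 library far from the others by Dixon's criterion, which chance alone does in about 1 of 20 groups. *Usp17la* in CPEB3+/- 2cell library A stood at 10.8 FPKM (ratio 0.840), with the next at 4.41 FPKM, and the same library was also highest for *Zfp352* and *Tdpoz3*. The other 3 rest on few fragments: *Usp17la* in CPEB3-/- MII library C at 0.125 FPKM (ratio 0.856, 7.01 fragments), *Tdpoz3* in CPEB3-/- MII library E at 0.0208 FPKM with the other 4 libraries at 0 (0.498 fragments), and *Zfp352* in CPEB3+/- MII library D, low at 0.0424 FPKM (ratio 0.862, 1.98 fragments). None of the 9 genes had a difference between the stage changes of the genotypes that passed the interaction test in limma; at an unadjusted p under 0.05, 3 did, beside 23.1% of all genes tested.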

How the results depend on the processing

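Over 786 recomputed values of single genes, 737 kept their direction and their side of the threshold, 24 changed sign, 23 came to pass and 2 no longer passed. The 8 stage calls of each genotype held in the settings run, except that *Usp17le* was not tested with a filter of 1 FPKM and was not called in CPEB3-/- with a pseudocount of 1 (0.56, under 1.5-fold). For the 6 of these genes in CPEB3+/- and 4 in CPEB3-/- that passed the filter only through 2cell libraries, this is a description. All sign changes were of differences that were not called. *Tcstv1* at MII turned to 0.087 with values as deposited, 0.17 with sum scaling, 0.020 with a filter of 1 FPKM, 0.00031 with all 19 libraries in 1 fit and 0.056 after GC correction (-0.051 to 0.061 with 1 library left out). *Usp17le* at the 2cell stage turned to 0.046 as deposited, 0.31 with sum scaling and 0.031 with all libraries (-0.16 to 0.13 with 1 left out), and *Zfp352* to 0.12 with sum scaling. *Tcstv3* at MII ranged from -0.016 to 0.22 with 1 left out. In the interaction, *Zfp352* turned to 0.18 with sum scaling (-0.16 to 0.047 with 1 left out) and *Usp17lc* to 0.32 with a pseudocount of 1.

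Genes called, in the order MII, 2cell, CPEB3+/- stage, CPEB3-/- stage and interaction, numbered 1355, 2565, 8810, 9044 and 1206. A filter of 1 FPKM, which tests fewer genes, gave 774, 1496, 4167, 4398 and 794, and a pseudocount of 1, which shrinks low genes, 481, 1178, 5119, 5264 and 791. With 1 library left out they were 954 to 1539, 1825 to 2563, 8900 to 9481, 8820 to 9328 and 919 to 1494; the cause was not tested. Scaling to the sum of FPKM moved the median of all genes from 0.12 to -0.41 and from 0.12 to -0.25 in the stage comparisons and the share of calls higher from 55.5% to 41.2% and from 55.8% to 44.8%; after GC correction these shares were 41.8% and 42.0%. In the interaction, sum scaling gave 65.8% in place of 48.6%. With the replicate letter as a replicate block, 824, 366 and 362 genes were called at MII, at the 2cell stage and in the interaction, where *Usp17lc* at MII (1.21, adjusted p = 0.0451) and *Usp17le* in the interaction (-1.40, adjusted p = 0.0425) passed. Libraries with the same letter did not deviate together over the genes tested (r -0.17 to 0.12). The labels do not say what the letter stands for, and these correlations cannot exclude a shared origin that affects single genes. At 17.2 to 23.6 M fragments, genes near 0.1 FPKM rest on few fragments. With no filter, the 95% intervals of the MII differences were -0.37 to 0.10 for *Zfp352*, -0.26 to 0.65 for *Usp17la*, -0.39 to 0.15 for *Tdpoz3* and -0.51 to 0.74 for *Tdpoz4*.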
